A study of Rattus norvegicus with 6 samples.

Results

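Collagen chains of the fibril-forming and fibril-associated classes were compared between peri-implant soft tissue, grown around a titanium implant in a tooth socket, and oral mucosal tissue from a socket that healed without one. The set held 10 genes, Col1a1, Col1a2, Col3a1, Col5a1, Col5a2, Col5a3, Col11a1, Col12a1, Col14a1 and Col16a1, out of 14217 genes that had a probe set with 1 symbol. They were chosen by name, as chains of these classes, and matched 19 probe sets. All 10 lay among the 10585 genes tested, each through the brightest probe set by its mean over the 6 arrays, and 2 of the other 9 probe sets were too dim to be tested.

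The peri-implant group was soft tissue taken from the left side of the upper jaw, where the first molar had been extracted and a titanium alloy implant placed in the socket (3 arrays). The oral mucosa group came from the right side, where the first molar had been extracted and the socket healed without an implant (3 arrays). The animals were male Sprague-Dawley rats, from an outbred strain with no stated genetic change, operated on at 4 weeks of age and sampled 4 weeks later. Tissue type and side of the mouth therefore went together and cannot be told apart. Whether a group's arrays stand for different rats is not stated in the labels, nor whether arrays of the left and right side share rats. Each p-value reflects only the array-to-array spread, part of which may be technical. In limma the spread of a probe set is also drawn toward that of probe sets of like signal.

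Fibril-forming collagens are triple helices that pack side by side into the banded fibrils of connective tissue. Type I, built from the Col1a1 and Col1a2 chains, and type III, built from Col3a1, make up most of the fibrils of gingiva and oral mucosa, and fibroblasts are their main source. Types V and XI are minor fibril formers that help start new fibrils and limit their width. Types XII, XIV and XVI have interrupted helices and sit on or near fibril surfaces, where they link fibrils to other matrix proteins.

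Of the 10 chains, 8 had lower signals in peri-implant soft tissue, 0 had higher signals and 2, Col11a1 and Col14a1, did not pass the test (limma, adjusted p under 0.05 after Benjamini-Hochberg adjustment over all probe sets tested). At an unadjusted p under 0.05 the counts were also 8 and 0. Among all genes tested 11.0% passed in this direction, 15.2% in the other and 26.1% in either. Among the 4911 genes with a mean signal of at least 9.36, that of the dimmest chain that passed, the share lower was 15.9%; this brightness limit was chosen after the values were seen. The median difference over the 10 chains was -0.79 on the log2 scale, peri-implant minus mucosa, against 0.03 over all genes tested. The falls ranged from 0.70 for Col5a1 to 1.75 for Col5a3, that is 1.62-fold to 3.35-fold lower, and without Col5a3 the largest was 0.92, for Col5a2. In bulk tissue, fewer fibroblasts and less collagen RNA per fibroblast cannot be told apart.

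**Figure D1:**
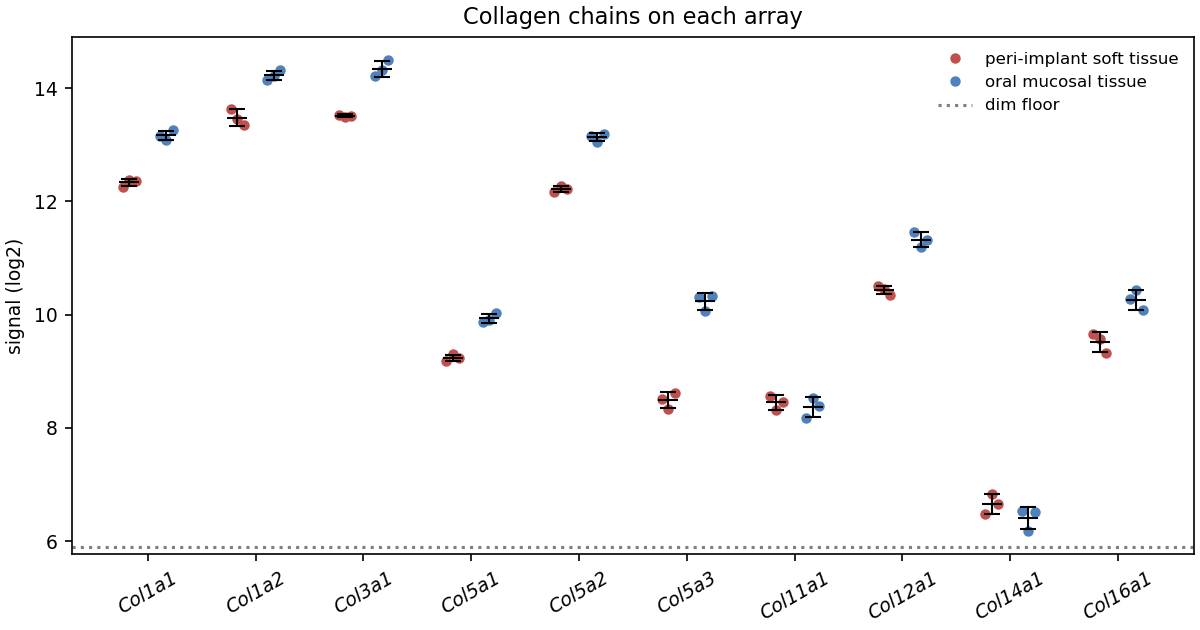
Signal (log2, vertical axis) of each collagen chain on each array, with peri-implant soft tissue in red left of oral mucosal tissue in blue; bars are the mean and SD of 3 arrays and the dotted line is the dim floor of 5.90. In 8 chains the red points all lie below the blue points, while those of Col11a1 and Col14a1 overlap; levels of different chains are not comparable, since probes differ.

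The groups did not overlap in any of the 8 chains that passed, as the plot of signals by array shows. This was so for 17.9% of all genes tested in this direction. The gap between the lowest mucosal and the highest peri-implant array ran from 0.41 for Col16a1 to 1.44 for Col5a3, and no SD within a group exceeded 0.18 in these chains. No array set the result: within the peri-implant group the lowest value of a chain fell on array 1 for 3 chains, on array 2 for 2 and on array 3 for 3. In mucosa array 3 was the highest in 6 of the 8. Leaving out any single array kept 8 chains lower and 0 higher.

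Promoter sequences of the chains were set beside these values because most of the chains moved together. RefSeq promoter windows ran from 250 bases before to 50 after the annotated start of the gene on the rat GRCr8 build. They were found for 6 of the 10 chains, Col1a2, Col5a1, Col5a2, Col5a3, Col11a1 and Col16a1. That start need not be where transcription begins. In Col1a2 the 50 bases after it open with atg, the letters of a start codon, and the distances below run from it. The windows were searched for CCAAT, the core of the CCAAT box that in mouse binds the factor CBF (NF-Y) in the type I collagen promoters. Matches on either strand (CCAAT or ATTGG, shown in capitals; matches that share bases were counted separately) were present in 3 windows and absent from those of Col5a1, Col5a2 and Col16a1. The share among all 33469 windows of the same length was 37.5%. The Col1a2 window (chr4:33518307-33518606, plus strand) held ATTGG 221 bases before the start. The Col5a3 window (chr8:27625899-27626198, minus strand) held CCAAT 182 bases before it. The Col11a1 window (chr2:204508886-204509185, plus strand) held ATTGG 230 and 77 bases before it. The windows below are those with a match, of 2 chains that were lower and of Col11a1, which did not pass. The 3 windows without a match were of chains that were lower, and Col1a1, Col3a1, Col12a1 and Col14a1 had no window. Whether the motif has a part in the collagen values was not tested.
Col1a2: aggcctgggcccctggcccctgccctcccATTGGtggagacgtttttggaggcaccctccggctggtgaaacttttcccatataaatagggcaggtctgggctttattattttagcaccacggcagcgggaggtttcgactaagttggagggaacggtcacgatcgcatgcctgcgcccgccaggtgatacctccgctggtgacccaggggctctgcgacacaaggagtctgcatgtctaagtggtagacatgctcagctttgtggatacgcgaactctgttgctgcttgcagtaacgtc
Col5a3: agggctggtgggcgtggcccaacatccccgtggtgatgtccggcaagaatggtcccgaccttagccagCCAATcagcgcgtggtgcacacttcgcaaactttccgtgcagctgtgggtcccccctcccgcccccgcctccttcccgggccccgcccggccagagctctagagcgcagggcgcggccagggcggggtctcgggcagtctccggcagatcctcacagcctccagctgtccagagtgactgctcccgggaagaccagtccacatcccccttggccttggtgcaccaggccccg
Col11a1: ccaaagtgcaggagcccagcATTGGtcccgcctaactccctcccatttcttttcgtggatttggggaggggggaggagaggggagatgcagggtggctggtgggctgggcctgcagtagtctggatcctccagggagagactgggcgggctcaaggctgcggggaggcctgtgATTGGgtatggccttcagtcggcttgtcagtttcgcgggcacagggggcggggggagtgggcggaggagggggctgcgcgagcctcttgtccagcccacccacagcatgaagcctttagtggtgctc

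Col1a1, the main chain of type I collagen, had signals of 12.26, 12.39 and 12.36 on the peri-implant arrays, against 13.15, 13.09 and 13.26 on the mucosal arrays (log2). Every peri-implant array lay below every mucosal one. The means were 12.34 ± 0.07 and 13.17 ± 0.08 (SD, n = 3 each), a fall of 0.83 (SE 0.08) or 1.78-fold, with a 95% interval of 1.59-fold to 1.99-fold (limma adjusted p = 3.57e-06). The other Col1a1 probe set fell by 0.68 (limma adjusted p = 8.51e-05).

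Col1a2, its partner in the type I trimer, had signals of 13.63, 13.46 and 13.34 in peri-implant tissue, against 14.15, 14.21 and 14.32 in mucosa. The groups were again apart, and the fall was 0.75 (SE 0.09), or 1.68-fold (limma adjusted p = 5.21e-05). The 2 Col1a2 probe sets gave near equal values, with a fall of 0.73 in the other.

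Col3a1, whose chain forms type III collagen and which is known to be made early in wound repair, had signals of 13.54, 13.48 and 13.51 in peri-implant tissue, against 14.22, 14.32 and 14.49 in mucosa. It fell by 0.83 (SE 0.09), or 1.78-fold (limma adjusted p = 1.25e-05). The peri-implant arrays lay within 0.05 of each other, while the mucosal arrays spread over 0.27. Of all chain values, that of Col3a1 came nearest to the highest signal of its array, 1.99 below it.

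Within an array, the log2 ratio of Col1a1 to Col1a2 was -1.38, -1.07 and -0.98 in peri-implant tissue, against -1.00, -1.12 and -1.06 in mucosa. The groups overlapped, and the mean ratio differed by -0.09 (exact permutation test over 20 assignments, two-sided p = 0.8). The ratio of Col1a1 to Col3a1 differed by 0.003 between peri-implant tissue (-1.17 ± 0.09) and mucosa (-1.18 ± 0.09; SD, n = 3 each; exact permutation p = 1). The size of such a ratio depends on the probes, so that only its difference between groups can be read. With 3 arrays against 3 this test cannot go below 0.1, and 6 ratios were compared.

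**Figure D2:**
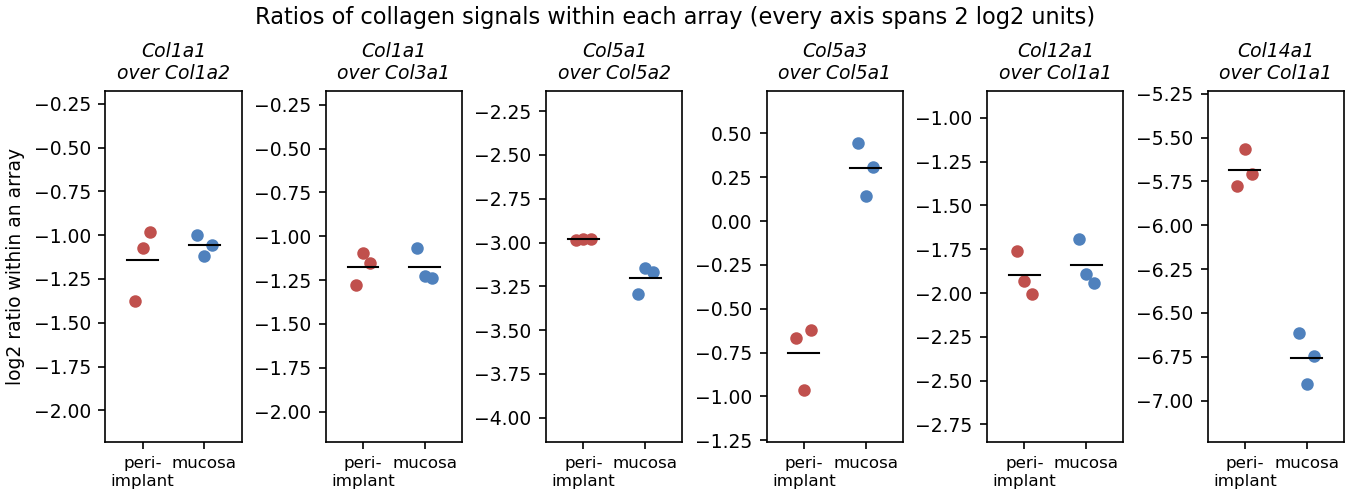
Log2 ratio of 2 chains within each array (vertical axes, each spanning 2 log2 units), with peri-implant soft tissue in red left of oral mucosal tissue in blue and the group mean as a line. The ratios of Col1a1 to Col1a2, Col1a1 to Col3a1 and Col12a1 to Col1a1 overlap between groups, whereas those of Col5a1 to Col5a2, Col5a3 to Col5a1 and Col14a1 to Col1a1 do not.

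Type V chains are minor partners of type I in fibrils. Col5a1 had signals of 9.18, 9.30 and 9.24 in peri-implant tissue, against 9.87, 9.91 and 10.02 in mucosa. It fell by 0.70 (SE 0.10), or 1.62-fold (limma adjusted p = 0.000167). Its other probe set fell by 1.09, or 2.13-fold (limma adjusted p = 5.04e-05), so the size of the change in Col5a1 depended on the probe set and its direction did not.

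Col5a2 had signals of 12.17, 12.27 and 12.22 in peri-implant tissue, against 13.16, 13.06 and 13.19 in mucosa. The peri-implant arrays again lay below all mucosal ones, with a fall of 0.92 (SE 0.07) or 1.89-fold (limma adjusted p = 9.52e-07). The other Col5a2 probe set fell by 0.64 (limma adjusted p = 8.65e-05).

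Col5a3, the least widespread type V chain, had signals of 8.52, 8.33 and 8.62 in peri-implant tissue, against 10.31, 10.06 and 10.33 in mucosa. It fell by 1.75 (SE 0.12), or 3.35-fold with a 95% interval of 2.80-fold to 4.01-fold (limma adjusted p = 2.59e-07). The interval of no other chain that passed reached this one, as the plot of differences shows for the probe sets with the highest mean.

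The ratio of Col5a3 to Col5a1 within an array was -0.67, -0.96 and -0.62 in peri-implant tissue, against 0.45, 0.14 and 0.31 in mucosa. The groups did not overlap and the difference was -1.05, at the smallest p the exact permutation test allows (p = 0.1, adjusted p = 0.2 over the 6 ratios). The ratio of Col5a1 to Col5a2 was higher by 0.22, at -2.98 ± 0.004 in peri-implant tissue and -3.20 ± 0.08 in mucosa (SD, n = 3 each; exact permutation p = 0.1). That difference had the opposite sign to the one the other Col5a1 probe set would give, since that probe set fell by 1.09. With it the Col5a3 to Col5a1 difference would keep its sign but be smaller.

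**Figure D3:**
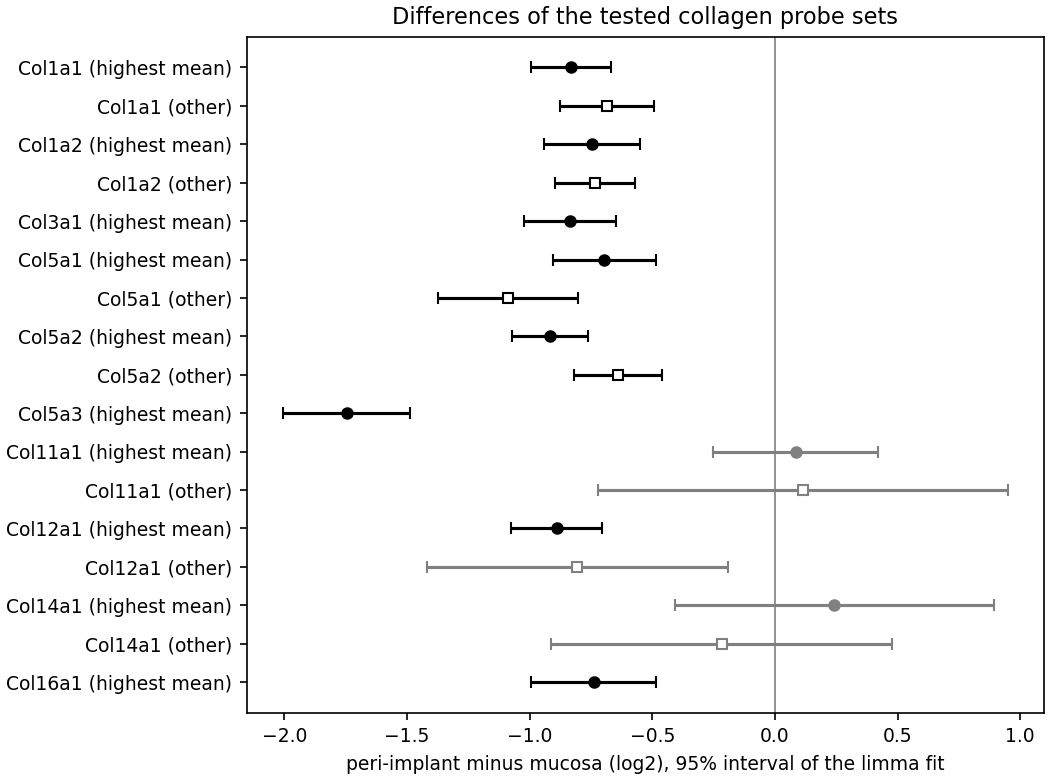
Difference in signal, peri-implant minus mucosa (log2, horizontal axis), with its 95% interval in the limma fit, for the 17 tested probe sets of the collagen chains; filled circles are the probe set with the highest mean of a chain, open squares the others, and grey marks those not past the threshold. Col5a3 lies furthest to the left at -1.75, and the 5 grey probe sets belong to Col11a1, Col12a1 and Col14a1.

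Col11a1, a type XI chain best known from cartilage fibrils, did not pass. Its signals were 8.57, 8.32 and 8.46 in peri-implant tissue, against 8.18, 8.53 and 8.39 in mucosa, and the groups overlapped. The difference was 0.09 with a 95% interval of -0.25 to 0.42 (limma adjusted p = 0.747), so a fall of the size seen in Col1a1 lay outside the interval. A second Col11a1 probe set differed by 0.11 (limma adjusted p = 0.871). The third was below the dim floor of 5.90 on 5 of 6 arrays and was not tested. It had 4.21, 3.23 and 4.40 in peri-implant tissue, against 4.66, 6.04 and 5.15 in mucosa. These groups did not overlap and differed by -1.33.

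Among the fibril-associated chains, Col12a1, whose product coats fibrils in dense tissue such as the periodontal ligament, had signals of 10.50, 10.46 and 10.36 in peri-implant tissue, against 11.46, 11.20 and 11.32 in mucosa. The groups were apart, with a fall of 0.89 (SE 0.09) or 1.85-fold (limma adjusted p = 6.42e-06). Another Col12a1 probe set had 6.91, 6.10 and 6.48 in peri-implant tissue, against 7.35, 7.27 and 7.28 in mucosa, and its difference of -0.81 did not pass (limma adjusted p = 0.0594). The third lay below the dim floor on all 6 arrays. Within an array the ratio of Col12a1 to Col1a1 differed by -0.06 and the groups overlapped (exact permutation p = 0.6).

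Col16a1, a type XVI chain made by fibroblasts and keratinocytes, had signals of 9.66, 9.58 and 9.33 in peri-implant tissue, against 10.27, 10.43 and 10.08 in mucosa. It fell by 0.74 (SE 0.12), or 1.67-fold (limma adjusted p = 0.000478). Its arrays were the most spread of the 8 chains that passed, with an SD of 0.18 in both groups.

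Col14a1, whose product binds fibrils in skin and tendon, had dim signals of 6.48, 6.83 and 6.65 in peri-implant tissue, against 6.54, 6.18 and 6.51 in mucosa. The groups overlapped, and the difference was 0.24 with a 95% interval of -0.41 to 0.89 (limma adjusted p = 0.621). The other probe set differed by -0.22 (limma adjusted p = 0.685), so the sign was not settled. The ratio of Col14a1 to Col1a1 within an array was -5.78, -5.56 and -5.71 in peri-implant tissue, against -6.61, -6.91 and -6.75 in mucosa. These groups did not overlap and differed by 1.07 (exact permutation p = 0.1). That difference includes the fall of 0.83 in Col1a1, and the other Col14a1 probe set would make it smaller.

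Over all 19 probe sets of the 10 chains, 12 of the 17 tested passed as lower, against 10.4% of all probe sets tested. The groups did not overlap in this direction in 13 of the 17, against 18.0% of all probe sets tested, nor in 2 that were too dim to be tested, of Col11a1 and Col12a1. Of the 9 probe sets that did not have the highest mean of their chain, 7 were tested and 4 passed as lower.

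Of 11 other fibrillar and fibril-associated chains 10 were on the array, 4 were bright enough to be tested and 0 passed in either direction in limma, also at an unadjusted p under 0.05. Those tested were Col24a1, Col27a1, Col9a2 and Col22a1, with differences of -0.35, 0.19, 0.39 and -0.36. Col11a2, Col9a1, Col9a3, Col19a1 and Col20a1 were below the dim floor on all 6 arrays.

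The genes that act on collagen chains were read from lists by role. The counts of these lists stand beside 11.0% lower and 15.2% higher among all genes tested. Enzymes and chaperones that modify procollagen in the endoplasmic reticulum and carry it out were lower for 3 of 18 tested genes and higher for 2 (limma; 8 and 3 at an unadjusted p under 0.05), with -0.23 as the median difference. P3h4, a partner of lysyl hydroxylase, had 8.88 ± 0.14 in peri-implant tissue against 9.70 ± 0.22 in mucosa and fell by 0.82. The prolyl 4-hydroxylase subunits P4ha1 and P4ha2 fell by 0.44 and 0.65, and averaged over its probe sets P4ha2 differed by 0.02 and was not called (limma adjusted p = 0.977, the highest over its alternatives, from 0.00208). Mia3, which exports procollagen from the endoplasmic reticulum, rose by 0.28, a call lost in 6 of 15 alternatives (limma adjusted p = 0.0113 to 0.625), among them those without peri-implant array 2 or 3 or mucosal array 1 (0.0612, 0.068 and 0.0805). Without peri-implant array 2 or 3, or without mucosal array 1, 0 members of this list were higher, and without peri-implant array 1 or mucosal array 2 there was 1. Without mucosal array 2 there were 5 lower members, and under quantile normalisation 6. With arrays centred on their median, and likewise without the variance trend, 0 were higher, and with no filter on dim signals 1 was.

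Enzymes that trim procollagen and cross-link fibrils were lower in 1 of 6 tested genes and higher in 3, and the median difference was 0.33. Tgm2, tissue transglutaminase, stood at 10.86 ± 0.10 in peri-implant tissue against 9.84 ± 0.12 in mucosa and rose by 1.02 (limma adjusted p = 3.33e-06). The lysyl oxidase Lox rose by 0.58 (limma adjusted p = 0.00541), while its relative Loxl2 fell by 1.71 (limma adjusted p = 0.000867). Averaged over its probe sets, the Loxl2 difference was -0.99 and was not called (limma adjusted p = 0.106, the highest over its alternatives, from 7.99e-05). Loxl1 rose by 0.63, a call that held in 6 of 15 alternatives (limma adjusted p = 0.0247 to 0.142). It was lost when any array but mucosal array 3 was left out, with an adjusted p of 0.0593, 0.142 and 0.0991 without peri-implant arrays 1, 2 and 3 and of 0.0604 and 0.109 without mucosal arrays 1 and 2 (limma). Lox was thus higher where the chains its product cross-links, Col1a1, Col1a2 and Col3a1, were lower.

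**Figure D4:**
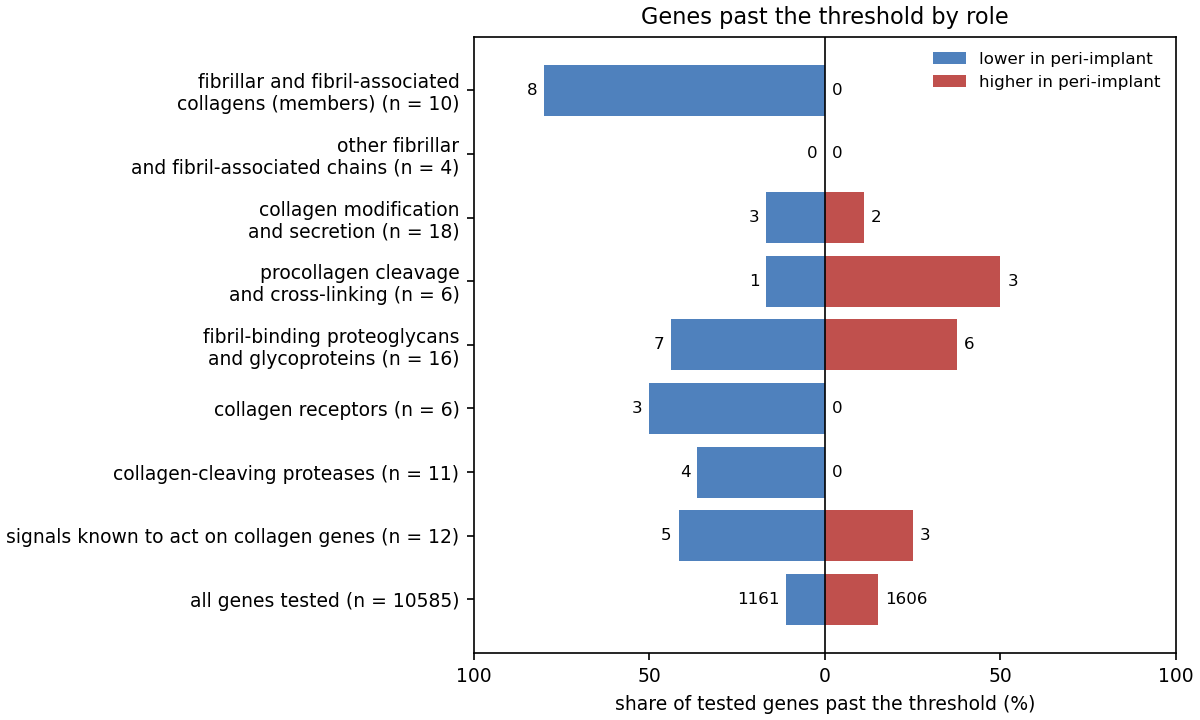
Share of tested genes past the threshold (horizontal axis, %), lower in peri-implant tissue to the left in blue and higher to the right in red, for the collagen chains, 7 lists by role and all genes tested; numbers at the bars are counts of genes. The collagen chains have 8 of 10 lower and 0 higher, whereas proteoglycans and glycoproteins that bind fibrils have 7 lower and 6 higher of 16.

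Proteoglycans and glycoproteins that bind fibrils went both ways, with 7 of 16 tested genes lower and 6 higher, and a median difference of -0.17. Without the variance trend 3 were higher. Tnc, tenascin-C, a glycoprotein of healing wounds, was at 9.24 ± 0.13 in peri-implant tissue against 11.93 ± 0.06 in mucosa and fell by 2.69 (limma adjusted p = 2.41e-10). Postn, periostin, which helps collagen cross-linking, fell by 1.06, and Sparc, a collagen-binding protein, fell by 0.79, close to the falls of Col1a1 and Col3a1. Abi3bp, a matrix protein that binds cells, moved the other way, at 11.34 ± 0.01 in peri-implant tissue against 9.35 ± 0.11 in mucosa, a rise of 2.00 (limma adjusted p = 2.69e-09).

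Receptors through which cells bind collagen were lower in 3 of 6 tested members and higher in 0 (limma; 3 and 0 at an unadjusted p under 0.05), with a median of -0.44. Itgb1, the integrin β1 subunit, fell by 0.50 (limma adjusted p = 0.000206). Its partner Itga11 binds fibrillar collagen on fibroblasts. Itga11 was below the dim floor on all peri-implant arrays, at 4.99 ± 0.16, against 6.63 ± 0.31 in mucosa. The difference was -1.63 in the values as deposited (limma adjusted p = 0.00884). With values raised to the floor Itga11 was at least 1.66-fold lower (limma adjusted p = 0.0321). Such a bound sets dim values at the floor of 5.90. Itga1, an integrin α subunit of the same list, was not tested because of its low mean. It had 6.04, 6.49 and 6.81 in peri-implant tissue, against 3.36, 5.45 and 5.08 in mucosa, where all arrays were dim. Itga1 thus went the other way, at least 1.46-fold higher, with no test. Ddr2, a receptor kinase that fibrillar collagen activates, fell by 0.88, and its call was lost without peri-implant array 2 or 3 and without mucosal array 2 or 3 (limma adjusted p = 0.0515, 0.0764, 0.0777 and 0.0807, within 0.014 to 0.0969 over its alternatives).

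Proteases that cleave collagen or its fragments, Prep among them, were lower in 4 of 11 tested members and higher in 0 (limma; 4 and 2 at an unadjusted p under 0.05), with a median of -0.01. Without mucosal array 3, 1 member was higher, and under quantile normalisation 2 were. Mmp13, collagenase-3, the main collagenase of rodents, was at 8.19, 7.98 and 8.32 in peri-implant tissue, against 11.77, 11.69 and 11.43 in mucosa. It fell by 3.47 (SE 0.12; limma adjusted p = 2.85e-10), a larger fall than that of any collagen chain. Ctsk, cathepsin K, which cleaves within the triple helix, fell by 0.51 (limma adjusted p = 0.00138). Mmp2, a gelatinase, fell by 0.85 (limma adjusted p = 8.3e-05). Its probe sets disagreed, and averaging them gave -0.09 (limma adjusted p = 0.84, the highest over its alternatives). Mmp14, a membrane-bound collagenase, fell by 0.25, a call that held in 6 of 15 alternatives (limma adjusted p = 0.0201 to 0.147). It was lost when any array but mucosal array 2 was left out, with an adjusted p of 0.0954, 0.0815 and 0.142 without peri-implant arrays 1, 2 and 3 and of 0.135 and 0.106 without mucosal arrays 1 and 3 (limma).

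Genes of signals known to act on collagen genes were lower in 5 of 12 tested genes and higher in 3, and the median difference was 0.03. Without peri-implant array 1, without array 3, with arrays centred on their median and with no filter on dim signals 3 were lower, and without the variance trend 2 were. Ccn2, connective tissue growth factor, which TGF-β induces in fibroblasts, was at 10.53, 10.74 and 10.67 in peri-implant tissue, against 11.74, 11.67 and 11.72 in mucosa. It fell by 1.06 (limma adjusted p = 4.93e-07). Tgfb3, a TGF-β ligand, rose by 0.81 (limma adjusted p = 3.29e-05). Of the other TGF-β ligands of the list, Tgfb2 fell by 0.71 (limma adjusted p = 0.00698) and Tgfb1 did not pass (0.417). Smad2 and Smad3 fell by 0.29 and 0.72 (limma adjusted p = 0.0358 and 0.00302), and Smad7 did not pass (0.549). The calls of Tgfb2, Smad2 and Smad3 were not followed gene by gene through the alternatives. The inflammatory cytokine gene Il1b rose by 3.72. Tnf encodes tumour necrosis factor, which is known to lower type I collagen transcription in cultured fibroblasts. It stood at 7.92 ± 0.23 in peri-implant tissue and was below the dim floor on all mucosal arrays, at 5.21 ± 0.31. The difference was 2.70 in the values as deposited (limma adjusted p = 3.11e-05). With dim values set at the floor Tnf was at least 4.06-fold higher.

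Markers of the cells such samples could hold were set beside the collagen values. For every marker list, the share among all genes tested was 11.0% lower and 15.2% higher. A summed signal is set mostly by the brightest genes of its list. Fibroblast markers were lower in 5 of 13 tested genes and higher in 3, and the median difference was -0.20, and none was dim on all arrays. Their summed linear signal was 21387 to 22294 in peri-implant tissue and 31808 to 34686 in mucosa. That sum rests mainly on Lum, S100a4, Vim and Dcn, of which Vim did not pass and Dcn rose by 0.34. Pdgfra, S100a4 and Lum fell by 0.83, 1.21 and 0.86, whereas Mfap5 rose by 3.72 and was below the dim floor on 2 of 3 mucosal arrays. Leukocyte markers were higher in 8 of 8 tested members, with a summed linear signal of 15237 to 15957 in peri-implant tissue and 2827 to 3083 in mucosa. The nerve sheath markers tested, Mbp and Pmp22, were both lower (Mbp was not called as the mean of its probe sets, limma adjusted p = 0.441), and their list summed to 918 to 1142 in peri-implant tissue and 3625 to 3742 in mucosa, with Sox10 and S100b dim on all arrays. Pmp22 was the brightest of that list in mucosa, at 11.44, against 8.89 in peri-implant tissue. Among the leukocyte markers Cd74 was the brightest, at 13.50 in peri-implant tissue and 10.35 in mucosa. The part of these marker changes in the collagen result was not tested.

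Oral epithelium markers were lower in 1 and higher in 3 of 8 tested members, none was dim, and their summed linear signal overlapped, at 270394 to 366766 in peri-implant tissue and 251576 to 351878 in mucosa. Krt4 rose by 3.12, Krt1 rose by 1.14 and Krt5 fell by 0.50, calls that held in all 15 alternatives. The other higher one, Cdh1, E-cadherin, was not called as the mean of its probe sets or without the variance trend (limma adjusted p = 0.996 and 0.0532). Myofibroblast and smooth muscle markers were lower in 1 and higher in 1 of 7 tested members, at summed signals of 1038 to 1268 in peri-implant tissue and 1110 to 1452 in mucosa. The lower one, Acta2, fell by 0.66, a call lost in 7 alternatives. Among them were those without peri-implant array 2 or 3 (limma adjusted p = 0.113 in both) or mucosal array 2 or 3 (0.152 and 0.105). The higher one, Mylk, rose by 1.82 (limma adjusted p = 0.00113) and kept its call in all 13 alternatives. Mucosal array 3 was below the dim floor for Mylk, at 5.25. Endothelial markers were lower in 0 and higher in 1 of 7 (limma; 0 and 3 at an unadjusted p under 0.05), at 1156 to 1269 in peri-implant tissue and 815 to 994 in mucosa. The one called, Kdr, a receptor for vascular endothelial growth factor, rose by 0.70. It was not called without peri-implant array 1, 2 or 3 (limma adjusted p = 0.0626, 0.0908 and 0.112), without mucosal array 2 or 3 (0.0608 and 0.0832) or as the mean of its probe sets, at 0.14 (0.869).

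Of the bone markers 2 were tested, Ibsp, which fell by 1.49, and Alpl, which rose by 1.92. The Alpl rise was 1.26 without mucosal array 1, and was not called without the variance trend (limma adjusted p = 0.0773). Alpl had 4.12, 6.50 and 5.71 on the mucosal arrays, of which 4.12 and 5.71 lay below the dim floor. The bone list summed to 499 to 531 in peri-implant tissue and 536 to 574 in mucosa. Bglap, osteocalcin, was not tested because of its low mean. It had 7.16, 6.97 and 6.75 in peri-implant tissue, against 4.49, 1.61 and 2.05 in mucosa, all 3 below the dim floor, and was at least 2.09-fold higher, with no test. Chondrocyte and skeletal muscle markers had 2 tested members each, of which 0 passed (limma; also 0 at an unadjusted p under 0.05). The chondrocyte list summed to 170 to 273 in peri-implant tissue and 235 to 411 in mucosa, with Col9a1, Hapln1, Chad and Cnmd dim on all arrays. The skeletal muscle list summed to 3453 to 3935 in peri-implant tissue and 3881 to 4116 in mucosa, with Myh2, Myh4 and Myl11 dim on all arrays. Myh1 was by far the brightest gene of that list, at 11.78 in peri-implant tissue and 11.79 in mucosa. Acta1, skeletal muscle actin, was also not tested. It was below the dim floor in peri-implant tissue, at 2.52, 1.55 and 4.53, against 6.90, 6.97 and 6.93 in mucosa, and was at least 2.05-fold lower, with no test. Actn3, a muscle actinin, had 5.33, 2.89 and 2.81 in peri-implant tissue, against 5.53, 6.13 and 6.19 in mucosa, where 1 array was dim too, and the groups did not overlap.

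The genes whose signals followed the mean of Col1a1, Col1a2 and Col3a1 most closely over the 6 arrays were Avpi1, Ahnak2, Prnp, which encodes the prion protein, S100a7l2 and Cryba2, with Pearson correlations of 0.999, 0.999, 0.999, 0.998 and 0.998. In peri-implant tissue they fell by 0.68, 0.98, 0.86, 1.98 and 2.24. The arrays form separate groups, which sets most of such a correlation, and 464 genes exceeded 0.95. Among the collagen chains the correlation with this mean was 0.992 for Col5a1, 0.984 for Col5a3, 0.971 for Col12a1 and 0.905 for Col16a1, against -0.278 for Col11a1 and -0.607 for Col14a1.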

How the data were processed

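Each of 6 rat RNA samples was amplified, biotin-labelled and run on its own Affymetrix 3' array, per the labels. The deposited log2 values had been scaled by the authors: in linear units the 2%-trimmed mean was 500.2 on every array, and the lowest value was 0. The software and background method were not given in the sources used here. Median signal was 6.62 to 6.78, and 58.3% to 62.4% of probe sets on an array exceeded 5.90, the 40th percentile of single values, here the dim floor. The number of arrays limits the precision.

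Without 57 control probe sets, the 18625 with a mean above the 40th percentile (5.68) were tested with limma 3.58.1 in R 4.3.3 (variance trend, two-sided; Benjamini-Hochberg adjustment over all of them, threshold 0.05). By the array's annotation, 1 symbol is carried by 20826 probe sets and several by 436; 20758 were matched to RefSeq. A gene was represented by its probe set with the highest mean. Summed marker signals are linear.

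The chains, lists and tests were chosen with earlier results of these data known. Named genes were all chains, up to 4 passing genes with the smallest p in each list, and the 5 most like the mean of Col1a1, Col1a2 and Col3a1. Other genes named, as dim, as tested or beside these, were chosen after their values were seen. The 16 alternatives covered normalisation, filter, variance prior, floor, pseudocount (32 added to linear signals), probe set, replicate block and each array left out.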

Additional observations from a re-analysis of the deposited data

How the results depend on the processing

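Over 16 alternatives the count of collagen chains that were lower stayed at 8, or 7 where the next brightest probe set of a chain was used, the count higher stayed at 0, and the median difference was -0.83 to -0.74. Leaving out each array in turn gave 8 lower chains every time and a median of -0.82 to -0.76. Of 156 single values of chains under an alternative, 152 kept their direction and their side of the threshold. The exceptions were Col12a1 with its next brightest probe set, at -0.81 and not past the threshold (limma adjusted p = 0.0594, within 1.57e-06 to 0.0594), Col14a1 with its next brightest probe set, at -0.22, and Col11a1, at -0.38 with the mean of its probe sets, 1 of them dim, and at -0.0093 without mucosal array 1, within -0.0093 to 0.17 over the arrays left out. Col11a1 and Col14a1 were not called under any alternative. For the 7 lists together, 23 of 73 genes were lower and 14 higher; without the variance trend 9 were higher, and leaving out single arrays gave 19 to 24 lower and 10 to 15 higher. Without the variance trend 1816 of all genes tested passed, against 2767 with it, and the cause was not tested. The adjusted p of the 8 lower chains then ran from 0.000769 for Col5a3 to 0.0202 for Col16a1 (limma). Of 694 values of the 47 other named genes under an alternative, 645 kept direction and call, 48 lost the call and 1 reversed, P4ha2 at 0.022 with the mean of its probe sets. Deviations of same-numbered arrays from their group means correlated at 0.013, -0.079 and 0.027, and those of the other pairs at -0.063 to 0.050. Whether same-numbered arrays share a rat is not stated in the labels, and deviations from means of 3 arrays cannot settle it. With the replicate block 8 chains were lower, as without it, the median stayed at -0.79, and 2704 genes passed. In limma the dim Col14a1 had an SE of 0.30, against 0.07 to 0.12 for the 8 chains that passed and 0.15 for Col11a1. That SE is drawn toward the spread of probe sets of like signal. The SDs of Col14a1 itself, 0.17 and 0.20, were near those of Col16a1, at 0.18 in both groups.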
